A study of Homo sapiens with 6 samples.

Results

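The IFIT genes encode interferon-induced proteins built from tetratricopeptide repeats, and 4 of them, IFIT1, IFIT2, IFIT3 and IFIT5, were followed through a stepwise transformation of human fibroblasts. They were chosen by their measured signals in these data, higher than in the normal cells in the immortalized line and lower in the transformed line, so their levels and differences are given as a description with no test. Each was read from the probe set that names no other gene and has the highest average signal, and they make up 4 of the 18417 genes measured. Expression was measured on 6 arrays, 2 biological replicates for each of 3 cell lines, and every value is a log2 signal unless it is called a difference. BJ are primary foreskin fibroblasts. BJEL were made from BJ with hTERT, the catalytic component of telomerase, and the SV40 early region, which encodes the large T and small t antigens, and they were grown with G-418 and hygromycin. BJELM were made from BJEL with a retrovirus carrying MYC-ER, a MYC protein fused to an estrogen receptor domain, and were grown with G-418, hygromycin, puromycin and, continuously, 4-hydroxytamoxifen. The introduced genes and these additions cannot be told apart, each state is represented by a single line, and whether a line is 1 clone is not given in the sources used here. In bulk RNA, fewer cells of a type and less RNA per cell cannot be told apart.

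IFIT proteins are made at low amounts in most cells and at high amounts after interferon or virus infection. IFIT1 binds the leading end of RNA whose cap lacks the ribose methylation of the cell's own messages and keeps it from being translated. IFIT5 binds RNA that begins with a bare phosphate chain. IFIT2 and IFIT3 bind each other and IFIT1, and IFIT3 stabilizes IFIT1 in the complex. Type I interferon acts through the receptor chains IFNAR1 and IFNAR2 and the kinases JAK1 and TYK2 to assemble ISGF3, a complex with IRF9 as its DNA-binding part, which binds interferon-stimulated response elements in promoters. IRF3, activated by sensors of foreign nucleic acid, can also switch on IFIT genes without interferon.

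All 4 genes lie next to each other on chromosome 10 on the plus strand in the RefSeq annotation of GRCh38.p14, IFIT2 at chr10:89302046-89309271, IFIT3 at chr10:89327997-89340968, IFIT1 at chr10:89392623-89406487 and IFIT5 at chr10:89414568-89420997. IFIT1B, the remaining gene of the cluster, lies between IFIT3 and IFIT1 at chr10:89378056-89385205. The annotated span of LIPA, on the minus strand at chr10:89213572-89414679, also covers the starts of IFIT2, IFIT3, IFIT1B, IFIT1 and IFIT5. The RefSeq promoter table holds 3 of the 4 members, and the stretch from base -160 to base 6, counted from the transcription start, is shown for them and, for contrast, for IFIT1B. The sequences are the plus strand of GRCh38.p14 at chr10:89392463-89392628 for IFIT1, chr10:89327837-89328002 for IFIT3, chr10:89414408-89414573 for IFIT5 and chr10:89377896-89378061 for IFIT1B. Capitals mark each match to the core of the response element, GAAA, any 2 bases and GAAA again, which reads TTTC, any 2 bases and TTTC on the strand shown.
IFIT1: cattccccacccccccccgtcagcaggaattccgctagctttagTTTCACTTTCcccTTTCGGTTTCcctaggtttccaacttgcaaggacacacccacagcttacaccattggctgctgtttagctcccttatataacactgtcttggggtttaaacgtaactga
IFIT3: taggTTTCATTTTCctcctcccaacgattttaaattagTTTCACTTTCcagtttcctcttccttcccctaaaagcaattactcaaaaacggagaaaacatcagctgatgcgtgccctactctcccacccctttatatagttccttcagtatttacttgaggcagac
IFIT5: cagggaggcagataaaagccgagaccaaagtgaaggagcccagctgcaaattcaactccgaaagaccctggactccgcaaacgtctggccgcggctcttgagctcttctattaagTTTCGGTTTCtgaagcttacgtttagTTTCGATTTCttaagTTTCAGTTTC
IFIT1B: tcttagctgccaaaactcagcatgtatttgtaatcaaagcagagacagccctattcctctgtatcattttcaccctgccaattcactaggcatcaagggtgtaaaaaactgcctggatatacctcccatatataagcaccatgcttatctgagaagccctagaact

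This core was searched on both strands of the window from 250 bases before to 50 bases after each start. IFIT1 held 2 matches, at -116 to -107 and -103 to -94. IFIT3 also held 2, at -156 to -147 and -122 to -113, and IFIT5 held 3, at -45 to -36, -19 to -10 and -4 to 6. IFIT1B held 0. All matches in the IFIT windows were on the minus strand. Among 27305 RefSeq promoters of the same length, 3.65% held at least 1 match and 0.271% held 2 or more. A longer form, the core followed directly by CT, each of whose matches contains a match to the core, occurred once in IFIT1, once in IFIT3 and 3 times in IFIT5, and in 0.271% of all promoters. Of the other ISGF3 target genes listed for comparison, 33 of 52 with a promoter entry (63.5%) held the core and 17 (32.7%) the longer form. A match describes the letters of the window and not the binding of a factor.

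**Figure D1:**
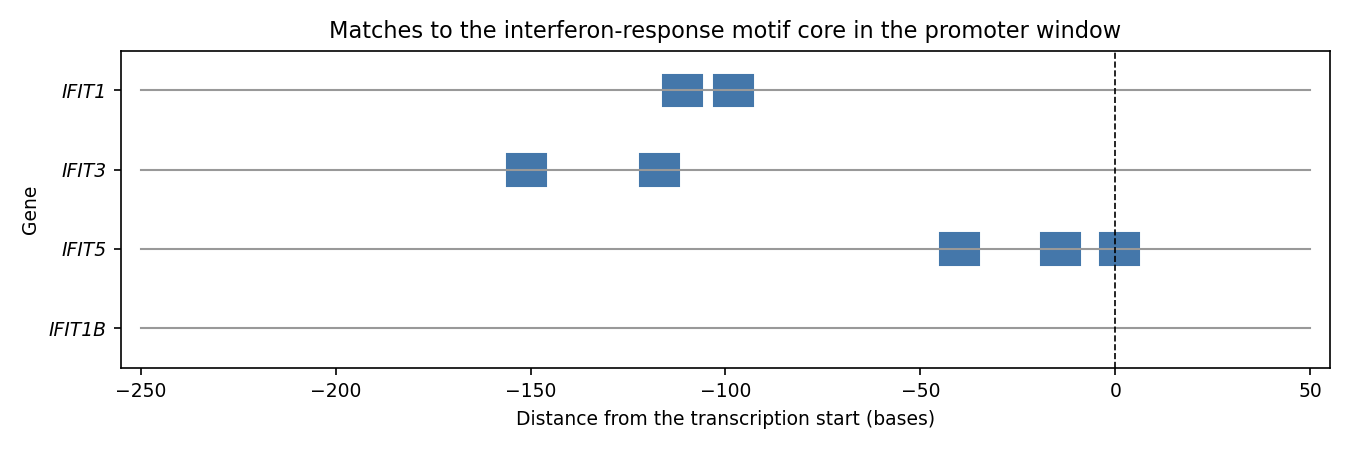
Matches to the response element core (GAAA, any 2 bases, GAAA) on either strand (blocks) along the promoter window of IFIT1, IFIT3, IFIT5 and IFIT1B, with the horizontal axis in bases from the transcription start (dashed line). IFIT1 and IFIT3 have 2 matches each upstream of the start, IFIT5 has 3 at or near it, and IFIT1B has 0.

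The arrays had medians between 6.37 and 6.46, and the Pearson correlation across genes was 0.993 to 0.995 within lines and 0.943 to 0.981 between lines, a description only, since genes are not replicates. TERT was at 7.77 and 7.88 in BJ, 10.71 and 10.97 in BJEL, and 10.84 and 10.78 in BJELM. MYC was at 9.47 and 9.61 in BJ, 10.22 and 10.12 in BJEL, and 9.57 and 8.90 on the arrays labelled BJELM, so its signal was not higher where MYC-ER was introduced. The MYC difference between the arrays labelled BJELM and BJEL was -0.93 (limma, adjusted p = 0.0444), under the 2-fold minimum, and it passed without BJELM replicate 1 (-1.27, adjusted p = 0.00947). Whether this probe set reads the introduced MYC-ER is not given in the sources used here. Each direction given for BJELM therefore rests on the arrays with that label. The mean of 16 fibroblast markers was 11.03 and 10.87 in BJ, 9.24 and 9.18 in BJEL, and 9.27 and 8.80 in BJELM. Of these 16 markers, 11 fell in BJEL and 14 in BJELM against BJ (limma, adjusted p under 0.05 and at least 2-fold), beside 2.29% and 4.70% of all genes. Their part in the results was not tested. The mean over 11 leukocyte markers stayed between 5.51 and 5.63, over 8 endothelial markers between 5.44 and 5.62 and over 9 epithelial markers between 6.89 and 7.35, with 1 marker called, an epithelial gene that fell in BJELM against BJ.

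IFIT1 was at 9.56 and 9.41 in BJ, 11.79 and 10.96 in BJEL, and 6.68 and 6.33 in BJELM. Both BJEL arrays stood above both BJ arrays and both BJELM arrays below them, with no overlap between lines. The difference from BJ was 1.89 ± 0.27 in BJEL (SE of the limma fit, n = 2 arrays per line), or 3.71-fold higher, and -2.98 ± 0.27 in BJELM, or 7.90-fold lower. Between BJELM and BJEL it was -4.87 ± 0.27, or 29.3-fold, the widest span of the 4 genes. Here and below, this SE pools the spread of all 3 lines and is moderated by that of all genes. It is therefore the same in the 3 comparisons of a gene and does not give the spread of the 2 lines compared. The SD between the IFIT1 arrays was 0.10 in BJ, 0.58 in BJEL and 0.25 in BJELM.

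IFIT2 was at 7.96 and 7.82 in BJ, 10.69 and 9.81 in BJEL, and 5.80 and 5.76 in BJELM. The order of the lines was the same as for IFIT1, and the BJELM arrays lay within 0.041 of each other. IFIT2 had the largest difference of the 4 between BJEL and BJ, 2.36 ± 0.27, or 5.13-fold higher. The difference from BJ was -2.11 ± 0.27 in BJELM, 4.33-fold lower.

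IFIT3 was at 8.27 and 8.00 in BJ, 10.40 and 9.67 in BJEL, and 6.02 and 5.91 in BJELM. Its lines again did not overlap. The difference from BJ was 1.90 ± 0.24 in BJEL, 3.73-fold higher, and -2.17 ± 0.24 in BJELM, 4.50-fold lower. The BJEL value was close to that of IFIT1 and the BJELM value to that of IFIT2.

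IFIT5 was at 8.51 and 8.60 in BJ, 10.35 and 9.63 in BJEL, and 7.83 and 8.25 in BJELM. BJEL stood apart as for the other members, but BJELM lay close to BJ. The difference from BJ was 1.43 ± 0.25 in BJEL, 2.70-fold higher. It was -0.52 ± 0.25 in BJELM, 1.43-fold lower, with only 0.26 between the lower BJ array and the higher BJELM array, less than the SD of 0.29 between the BJELM arrays. The BJELM and BJ levels of IFIT5 are thus neighbours that do not differ beyond their spread, whereas the other neighbouring levels of the 4 genes were further apart than the SD within either line.

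In each of the 4 genes the order was BJELM, then BJ, then BJEL, as the choice of the genes fixed. No arrays of different lines overlapped in any of them, and by comparison 61.2% of all genes had no overlap between BJEL and BJ, 60.5% between BJELM and BJ and 52.8% between BJELM and BJEL. The median difference of the 4 was 1.89 for BJEL against BJ, -2.14 for BJELM against BJ and -4.27 for BJELM against BJEL, where the medians of all genes were -0.017, 0.011 and 0.029. Leaving out each array in turn gave differences of IFIT1 from 1.48 to 2.30 in BJEL and from -3.16 to -2.81 in BJELM, and of IFIT5 from 1.07 to 1.79 in BJEL and from -0.72 to -0.31 in BJELM. IFIT1B, which is not among the 4, was between 4.49 and 4.77 on all arrays, and its differences were 0.12 ± 0.091, -0.06 ± 0.091 and -0.18 ± 0.091, none of them called. Detection calls per probe set were not used here, so whether the BJELM signals of IFIT2 and IFIT3, or any signal of IFIT1B, lie above background is not known.

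**Figure D2:**
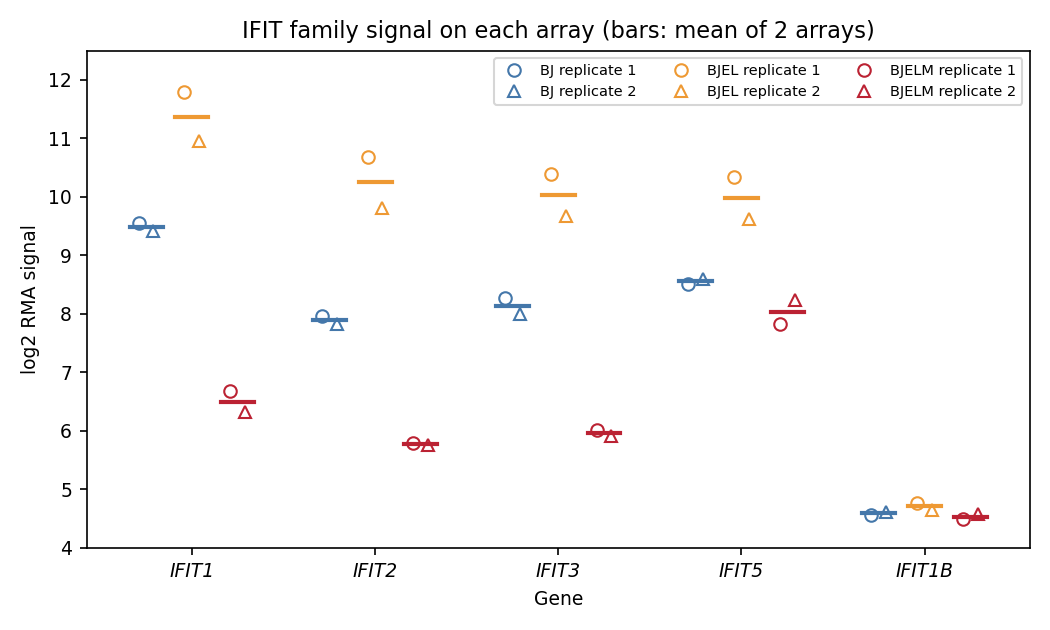
The log2 signal of IFIT1, IFIT2, IFIT3, IFIT5 and IFIT1B on each array, with circles for replicate 1, triangles for replicate 2 and bars for the mean of the 2 arrays of BJ, BJEL and BJELM. In the first 4 genes the BJEL arrays are highest and the BJELM arrays lowest, with IFIT5 in BJELM close to BJ, and IFIT1B stays between 4.49 and 4.77.

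Within BJEL the replicates differed in all 4 genes in the same direction. Replicate 1 was above replicate 2 by 0.83 in IFIT1, 0.88 in IFIT2, 0.73 in IFIT3 and 0.72 in IFIT5. Replicate 1 was also the higher in 56 of 57 other ISGF3 target genes (98.2%), by a median of 0.85, but in 51.7% of all genes, by a median of 0.007. In BJ, replicate 1 was the higher in 3 of the 4 members, in 46 of the 57 targets (80.7%) and in 58.3% of all genes, and the median over the targets was 0.16. In BJELM, replicate 1 was the higher in 3 of the 4 members, in 46 of the 57 targets (80.7%) and in 57.9% of all genes. The targets had a median of 0.23 there, and IFIT5 went the other way, with a value of -0.41 for replicate 1 minus replicate 2. The size of the BJEL differences of the 4 genes therefore depended on which BJEL array was used, from 1.92 to 2.80 for IFIT2, while both arrays stayed above BJ.

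The other genes of the pathway were taken from lists in the order of their roles. These lists were chosen with earlier results of these data known, so the counts below are not independent of those results. A gene was said to rise or fall where limma gave an adjusted p under 0.05 over all 18417 genes and a change of at least 2-fold. By this rule 5.18% of all genes were called in BJEL against BJ (2.89% rose and 2.29% fell), 8.79% in BJELM against BJ (4.09% rose and 4.70% fell) and 2.68% in BJELM against BJEL (0.923% rose and 1.76% fell). Both comparisons with BJ share the BJ arrays. Over all 5 interferon lists, with the IFIT genes left out, 46 of 136 measured genes rose and 1 fell in BJEL, 2 rose and 11 fell in BJELM against BJ, and 0 rose and 56 fell in BJELM against BJEL. Without BJ replicate 1, the second of these counts was 0 risen and 8 fallen. The methods' t-test, a test for unequal variances fitted to the 2 lines alone, called 0 of the 136 after adjustment in each comparison. It has few degrees of freedom with 2 arrays per line, and after adjustment it also called 0 of the 16 fibroblast markers.

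Among 22 interferon ligands and receptors limma called 0 in each comparison, with 4, 4 and 3 at an unadjusted p under 0.05 and 0 by the methods' t-test at an unadjusted p under 0.05 and 2-fold. Many of the ligand signals were as low as those of IFIT1B and may be background, in which case the lack of a call says nothing of the ligand. IFNB1, the interferon beta that fibroblasts secrete, was between 4.19 and 4.28 on all arrays. Its difference from BJ was 0.09 ± 0.08 in BJEL (adjusted p = 0.522) and 0.04 ± 0.08 in BJELM (adjusted p = 0.82). The receptor chain IFNAR1 differed from BJ by -0.28 and -0.44 in BJEL and BJELM (adjusted p = 0.155 and 0.0321), under 2-fold. For IFNAR2 these differences were 0.02 and -0.34 (adjusted p = 0.914 and 0.0568). IFNL3, a lambda interferon, had the largest difference of the list in BJEL against BJ, -0.46 (adjusted p = 0.0197), and IL10RB, a chain of the lambda receptor, in BJELM against BJ, -0.52 (adjusted p = 0.0103), each below 2-fold. IFNA1, IFNA4, IFNA7, IFNA14 and IFNA17 were not analysed here.

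Of 16 JAK, STAT and IRF factors 0 were called in BJEL against BJ, with 7 at an unadjusted p under 0.05 and 0 by the methods' t-test at an unadjusted p under 0.05 and 2-fold, and with the replicate number as a block 1 rose. IRF9 fell in BJELM against BJ, and IRF9, IRF2 and IRF7 fell in BJELM against BJEL. IRF9 was at 9.15 and 8.49 in BJ, 10.12 and 9.59 in BJEL, and 7.80 and 7.02 in BJELM, so its lines stood in the order of the IFIT genes. Its difference from BJ was 1.03 ± 0.34 in BJEL (adjusted p = 0.0921) and -1.41 ± 0.34 in BJELM (adjusted p = 0.0245), and between BJELM and BJEL it was -2.44 ± 0.34 (adjusted p = 0.0105). The call against BJ was lost without BJ replicate 1 (-1.08, adjusted p = 0.126) or BJELM replicate 2 (-1.02, adjusted p = 0.0898), and that against BJEL without BJEL replicate 1 (-2.18, adjusted p = 0.0663). IRF2, a factor that can oppose IRF1, fell by 1.45 in BJELM against BJEL (adjusted p = 0.00753), a call lost without BJEL replicate 1 (adjusted p = 0.0552). IRF7, itself induced by interferon, fell by 1.01 there (adjusted p = 0.026) and lost its call in 5 of the 6 fits with an array left out, all but that without BJEL replicate 2 (adjusted p from 0.0506 to 0.0984). Without BJEL replicate 1 the count of fallen factors was 0, without BJ replicate 1, BJ replicate 2 or BJELM replicate 2 it was 2. In BJEL against BJ 1 factor, IRF7, passed without BJEL replicate 2 (1.24, adjusted p = 0.00913).

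Other factors upstream were not called. IRF3, which induces IFIT genes directly, differed from BJ by 0.18 and -0.25 in BJEL and BJELM (adjusted p = 0.355 and 0.181). IRF1, an early interferon-induced factor, differed by 0.87 and 0.06 (adjusted p = 0.0565 and 0.903), and in BJELM against BJEL it passed without BJELM replicate 1 (-1.08, adjusted p = 0.0492). JAK1 differed by -0.47 and -0.58 (adjusted p = 0.0357 and 0.0109), under 2-fold, and TYK2 by 0.25 and 0.31 (adjusted p = 0.418 and 0.276).

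Of 13 inhibitors of interferon signalling 1 was called, USP18, which blocks the type I interferon receptor and removes ISG15 from proteins. USP18 was at 7.67 and 7.51 in BJ, 11.45 and 9.98 in BJEL, and 7.13 and 6.82 in BJELM. It rose by 3.12 ± 0.44 in BJEL against BJ (adjusted p = 0.00628) and fell by 3.74 ± 0.44 in BJELM against BJEL (adjusted p = 0.00686), while its difference between BJELM and BJ was -0.61 ± 0.44 (adjusted p = 0.396). SOCS3, an inhibitor of cytokine receptors, had the largest difference of the list in BJELM against BJ, -0.90 (adjusted p = 0.00231), under 2-fold, and passed without BJELM replicate 1 (-1.03, adjusted p = 0.003).

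Of 28 nucleic acid sensors and adaptors 8 rose and 1 fell in BJEL against BJ, 1 rose and 2 fell in BJELM against BJ, and 0 rose and 7 fell in BJELM against BJEL. Without BJ replicate 1 the first of these was 5 risen and 0 fallen, and the number risen in BJELM against BJ was 0 without BJ replicate 1 or BJELM replicate 1 and 2 without BJELM replicate 2. RIGI, a cytoplasmic sensor of RNA with a leading triphosphate, was at 7.69 and 7.51 in BJ, 11.47 and 10.62 in BJEL, and 7.43 and 7.19 in BJELM. RIGI rose in BJEL by 3.44 ± 0.27 (adjusted p = 0.00118) and fell by 3.73 ± 0.27 from BJEL to BJELM (adjusted p = 0.0019). IFIH1, a sensor of long double-stranded RNA, rose by 3.69 ± 0.45 in BJEL (adjusted p = 0.00391), and TLR3, its endosomal counterpart, by 3.60 ± 0.32 (adjusted p = 0.00167). SAMHD1, which degrades nucleotides, rose in BJEL by 2.55 (adjusted p = 0.00155), and against BJ it rose in BJELM by 1.03 (adjusted p = 0.0174), which no longer passed when any BJ or BJELM array was left out. From BJEL to BJELM it fell by 1.53 (adjusted p = 0.0124), a call lost without BJELM replicate 2 (adjusted p = 0.0562). DHX58, which modulates RIGI and IFIH1, rose by 1.84 in BJEL (adjusted p = 0.00953), which no longer passed when BJ replicate 1 was left out (adjusted p = 0.0551), and fell by 2.35 from BJEL to BJELM (adjusted p = 0.00753).

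The adaptor of cytoplasmic DNA sensing, STING1, moved the other way in BJEL. STING1 was at 10.59 and 10.08 in BJ, 9.29 and 8.67 in BJEL, and 7.99 and 7.50 in BJELM, so each line stood below the last. It fell by 2.59 ± 0.28 in BJELM against BJ (adjusted p = 0.00145). In BJEL against BJ it fell by 1.35 ± 0.28 (adjusted p = 0.0231), which no longer passed with BJ replicate 1 left out (adjusted p = 0.125) or with BJEL replicate 2 left out (adjusted p = 0.0936), and from BJEL to BJELM it fell by 1.24 ± 0.28 (adjusted p = 0.0438), a call lost in each of the 6 fits with an array left out. IKBKE, a kinase that phosphorylates IRF3, fell by 1.19 in BJELM against BJ (adjusted p = 0.00362). TREX1 was not analysed here.

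Of 57 other ISGF3 target genes 37 rose and 0 fell in BJEL against BJ, 1 rose and 8 fell in BJELM against BJ, and 0 rose and 45 fell in BJELM against BJEL. The methods' t-test at an unadjusted p under 0.05 and 2-fold called 8, 5 and 16 of them, and after adjustment 0 in each comparison. The median difference of the list was 1.91, -0.34 and -2.67, beside -0.017, 0.011 and 0.029 over all genes. The IFIT medians of 1.89 and -4.27 lay near the first and beyond the last of these, and the IFIT median of -2.14 in BJELM against BJ lay below that of the list. The list spans differences from -3.59 to 1.16 in BJELM against BJ, and 3 of the 4 IFIT genes were between -2.98 and -2.11 there. These are descriptions, since the IFIT genes were chosen for these differences.

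The 5 targets named for their rise in BJEL or their fall from BJEL to BJELM were not called between BJELM and BJ. RSAD2, an antiviral enzyme known as viperin, was at 4.93 and 4.97 in BJ, 11.50 and 9.94 in BJEL, and 5.04 and 4.86 in BJELM. RSAD2 rose in BJEL by 5.77 ± 0.45 (adjusted p = 0.00119), and its difference between BJELM and BJ was -0.001 ± 0.45 (adjusted p = 0.999). IFI44L, an interferon-induced gene of unsettled function, rose by 5.60 ± 0.34 (adjusted p = 0.000664), MX1, a GTPase that blocks viral replication, by 5.31 ± 0.39 (adjusted p = 0.00102), and OAS2, which makes the activator of RNase L, by 5.01 (adjusted p = 0.000734). Their differences between BJELM and BJ were -0.14, -0.38 and -0.54 (adjusted p = 0.84, 0.584 and 0.295). BST2, which tethers budding virus to the cell, rose by 5.32 ± 0.42 in BJEL (adjusted p = 0.00118) and differed by 1.03 ± 0.42 in BJELM from BJ (adjusted p = 0.128). Whether the BJ and BJELM signals of these 5 genes lie above background is not known here.

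The 8 targets that fell in BJELM against BJ were IFITM1, IFITM2, UBA7, SAMD9, SAMD9L, PARP9, TRIM22 and GBP3, and PNPT1 rose, though not without BJ replicate 1 or BJELM replicate 2, where 0 targets rose. PARP9 no longer passed when BJ replicate 1, BJ replicate 2 or BJELM replicate 2 was left out (adjusted p of 0.192, 0.0797 and 0.161). IFITM1, a membrane protein that blocks virus entry, was at 11.85 and 11.88 in BJ, 12.82 and 12.64 in BJEL, and 10.22 and 9.69 in BJELM. It fell by 1.91 ± 0.18 in BJELM (adjusted p = 0.000912), and its difference of 0.86 ± 0.18 in BJEL (adjusted p = 0.0225) was under 2-fold. UBA7, the activating enzyme for ISG15, fell by 1.82 in BJELM (adjusted p = 0.0077), and its difference in BJEL was 0.86 (adjusted p = 0.126). SAMD9L, a growth-restraining antiviral protein, rose by 2.25 in BJEL (adjusted p = 0.00207) and fell by 2.01 in BJELM (adjusted p = 0.00151). TRIM22, an antiviral ubiquitin ligase, was at 9.23 and 8.69 in BJ, 9.89 and 7.88 in BJEL, and 5.79 and 4.95 in BJELM. It fell by 3.59 ± 0.65 in BJELM (adjusted p = 0.00869, and 0.0544 without BJ replicate 1), and from BJEL to BJELM it fell by 3.51 ± 0.65 (adjusted p = 0.0235, and 0.0966 without BJELM replicate 2).

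**Figure D3:**
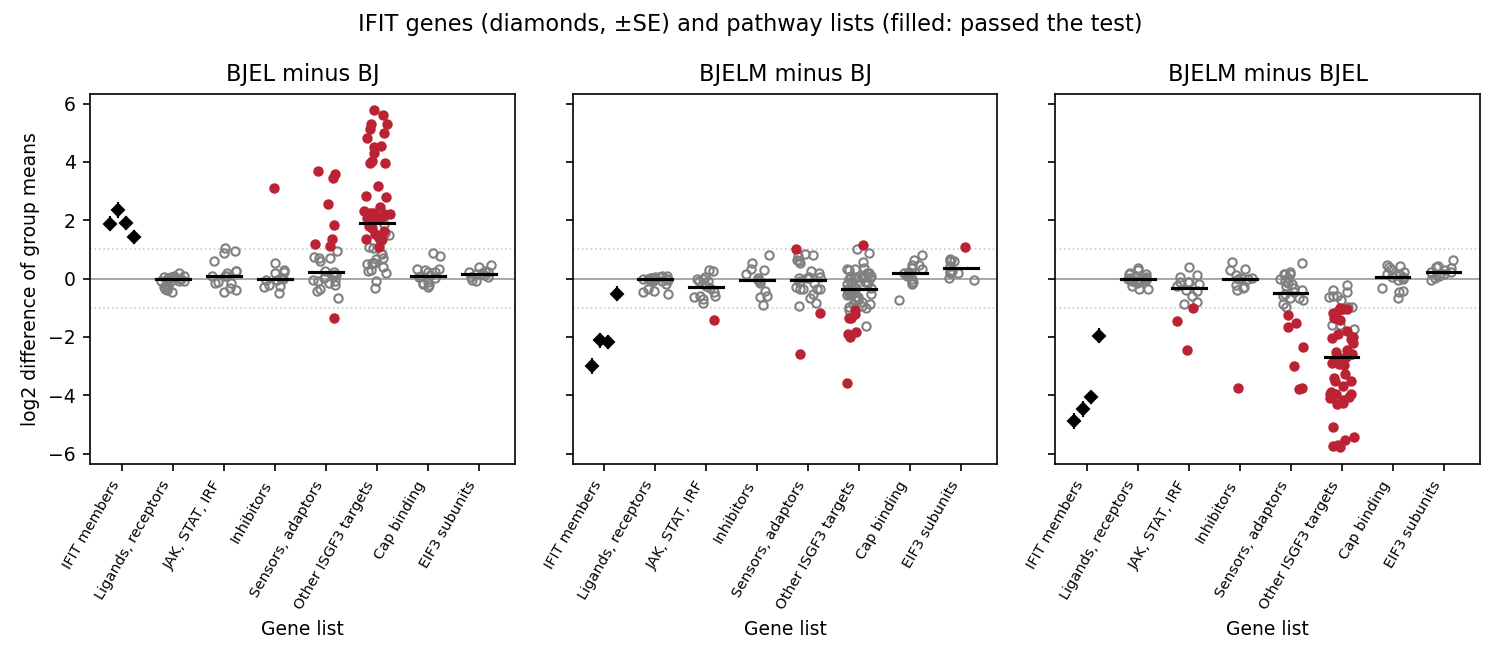
Differences of group means on the log2 scale (vertical axis) for the IFIT genes (black diamonds, in the order IFIT1, IFIT2, IFIT3, IFIT5, ± SE) and for each gene of 7 pathway lists (horizontal axis), with filled points for genes that passed the test, open points for those that did not, thick bars for list medians and dotted lines at 2-fold. The other ISGF3 targets lie mostly above 0 in BJEL minus BJ (median 1.91) and below it in BJELM minus BJEL (median -2.67), while the medians of the ligand, cap and EIF3 lists lie between -0.02 and 0.35 in the 3 comparisons.

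IFIT proteins act on capped RNA and on the initiation factor EIF3, so genes of both were listed. Of 17 genes of cap methylation and cap binding limma called 0 in each comparison, with 5, 5 and 6 at an unadjusted p under 0.05 and 0 by the methods' t-test at an unadjusted p under 0.05 and 2-fold. CMTR1, which adds the ribose methylation that IFIT1 discriminates, was at 8.90 and 8.62 in BJ, 10.03 and 9.23 in BJEL, and 9.19 and 8.73 in BJELM. Its difference was 0.87 ± 0.29 in BJEL against BJ (adjusted p = 0.095) and passed without BJEL replicate 2 (1.27, adjusted p = 0.0342), and it was -0.67 ± 0.29 in BJELM against BJEL (adjusted p = 0.212). Without BJELM replicate 2 the list had 1 risen gene in BJELM against BJ, DXO, which removes incomplete caps. DCP2, a decapping enzyme, had the largest difference of the list in BJELM against BJ, 0.79 (adjusted p = 0.00211), under 2-fold. Of 12 EIF3 subunits 1 rose, EIF3J in BJELM against BJ, by 1.09 (adjusted p = 0.0118), which no longer passed with BJ replicate 1 left out (0.89, adjusted p = 0.0687) or BJELM replicate 2 (0.85, adjusted p = 0.0438). In the other comparisons 0 subunits were called by limma, with 3 and 5 at an unadjusted p under 0.05, and 0 by the methods' t-test at an unadjusted p under 0.05 and 2-fold.

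No measured neighbour of the IFIT genes on chromosome 10 was called in opposite directions in BJEL and BJELM against BJ. Against BJ, LIPA, a lysosomal lipase whose annotated span covers the starts of the IFIT genes on the other strand, fell in BJEL by 1.63 ± 0.11 (adjusted p = 0.000934), and in BJELM it fell by 1.71 ± 0.11 (adjusted p = 0.000347). FAS, a death receptor, fell in BJEL by 1.64 (adjusted p = 0.00129), and in BJELM it fell by 2.66 (adjusted p = 0.000168). ACTA2, smooth muscle actin, fell by 2.84 ± 0.60 in BJEL (adjusted p = 0.024), which no longer passed when BJ replicate 1, BJEL replicate 1 or BJEL replicate 2 was left out (adjusted p of 0.102, 0.0907 and 0.108), and its difference in BJELM was -1.96 ± 0.60 (adjusted p = 0.0557), which passed without BJ replicate 2 or BJELM replicate 1. KIF20B, a mitotic kinesin, rose in both lines, by 1.31 (adjusted p = 0.00826) in BJEL and 1.29 (adjusted p = 0.00494) in BJELM. From BJEL to BJELM, of the 10 neighbours only FAS was called, falling by 1.01 (adjusted p = 0.00904), and not without BJEL replicate 1 (adjusted p = 0.0636) or BJELM replicate 2, where the fall of 0.90 was under 2-fold. CH25H, an interferon-induced cholesterol hydroxylase, differed by 0.25 and -0.17 (adjusted p = 0.197 and 0.378), and SLC16A12, PANK1, MIR107, FLJ37201 and ACTA2-AS1 were not called in any comparison.

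**Figure D4:**
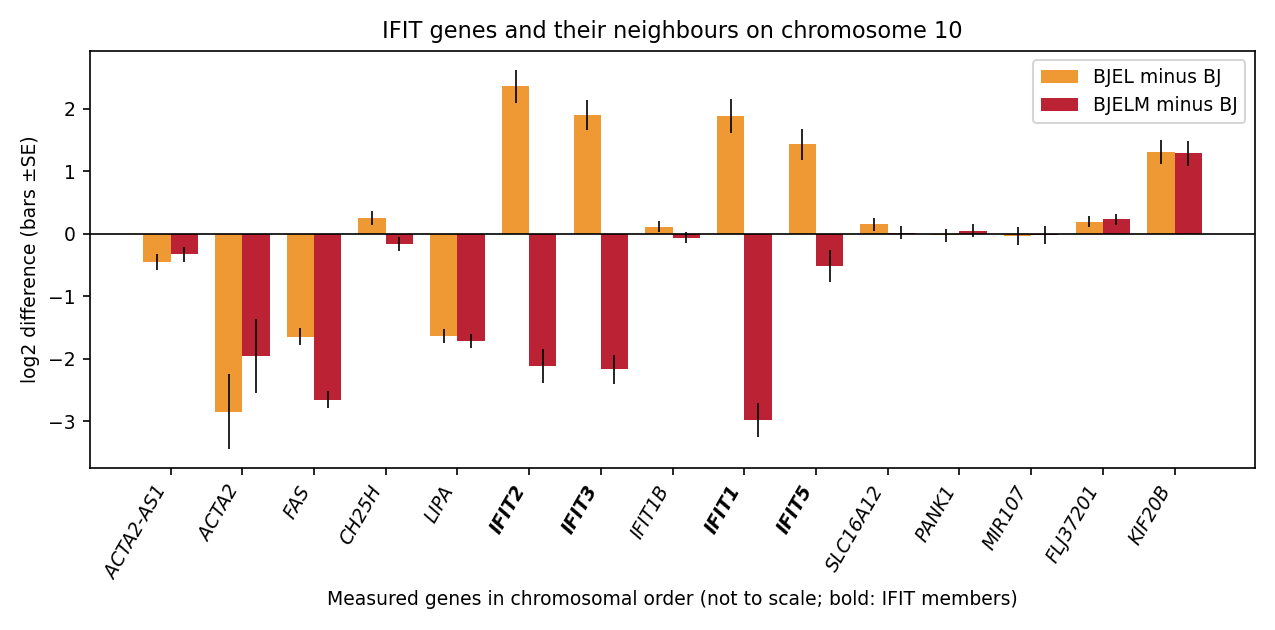
Differences of group means on the log2 scale, BJEL minus BJ and BJELM minus BJ (bars, ± SE), for the measured genes around the IFIT cluster in chromosomal order, with members in bold. IFIT2, IFIT3, IFIT1 and IFIT5 have a positive bar of at least 1.43, the value of IFIT5, beside a negative one. CH25H (0.25 and -0.17) and IFIT1B (0.12 and -0.06) show the same signs at small size. ACTA2, FAS and LIPA are negative in both and KIF20B positive in both.

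Genes with the profile most like that of the IFIT genes were found by the distance between centred profiles over the 6 arrays, where each gene's own mean is removed. Among the IFIT genes, IFIT3 was closest to their mean profile (distance 0.29), followed by IFIT2 (0.66), IFIT1 (1.22) and IFIT5 (2.00). The 10 closest other genes were SAMD9L (0.58), GMPR (0.84), PARP9 (0.85), SAMD9 (0.92), SECTM1 (1.09), DDX60L (1.13), XAF1 (1.16), DTX3L (1.17), DDX60 (1.22) and APOL6 (1.28). SAMD9L was at 9.08 and 8.98 in BJ, 11.56 and 11.02 in BJEL, and 7.25 and 6.79 in BJELM. GMPR, a purine nucleotide reductase, was at 9.31 and 8.70 in BJ, 11.27 and 9.88 in BJEL, and 7.52 and 7.05 in BJELM. GMPR, SECTM1 and APOL6 were in none of the pathway lists. All 10 had both BJEL arrays above and both BJELM arrays below the BJ arrays, which the choice by distance favours. In either direction, 61.2% of all genes had no overlap between BJEL and BJ and 60.5% between BJELM and BJ. The share of all genes with the joint order is not given here.

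The correlation between pairs of IFIT genes over the 6 arrays ran from 0.90 for IFIT1 with IFIT5 to 0.997 for IFIT2 with IFIT3, a description of 6 arrays that fall into 3 lines. Among 618 genes with a range of at least 2 log2 units, TBX15, a developmental transcription factor, had the highest r with IFIT2 (0.998) and IFIT3 (0.999). TBX15 was at 7.75 and 7.69 in BJ, 9.09 and 8.69 in BJEL, and 6.44 and 6.44 in BJELM, a difference of 1.17 in BJEL and -1.28 in BJELM from BJ. IFIT3 had the highest r with IFIT1 (0.995). IFIT5 had other partners, SP110 (0.983), SP100 (0.983) and PSMB8 (0.981), genes of nuclear bodies and of the immunoproteasome whose differences in BJELM against BJ were -0.64, -0.47 and -0.38, beside -0.52 for IFIT5.

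**Figure D5:**
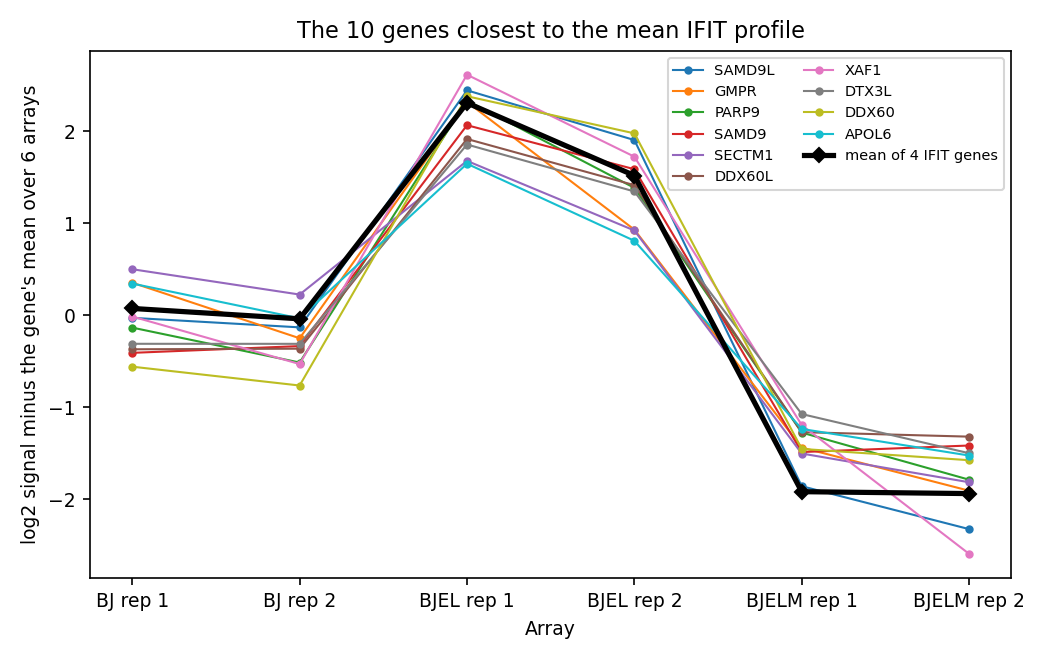
Centred log2 signals (vertical axis, each gene's mean over 6 arrays removed) on the 6 arrays (horizontal axis) for the mean of the 4 IFIT genes (thick line with diamonds) and the 10 genes closest to it (thin lines). The curves are highest on the BJEL arrays, with replicate 1 above replicate 2, and lowest on the BJELM arrays.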

How the data were processed

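Total RNA of BJ, BJEL and BJELM cells was hybridised to Affymetrix Gene 1.0 ST arrays, 2 biological replicates per line. The authors ran RMA (defaults) with the Expression Console software of Affymetrix, version 1.3.1 by the submitters' processing notes, and deposited a log2 signal for each of 33297 probe sets. RMA subtracts background, equalizes the distribution of all arrays and summarizes probes, so signals near background are compressed and levels of different probe sets are not comparable. No counts or depth exist for arrays, and precision is limited by how few arrays there are.

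The platform's probe annotation lists 21214 probe sets, 19460 with 1 symbol and 1754 with several, and 12083 are not listed. Keeping for each gene the 1-symbol probe set with the highest mean left 18417 genes, of which 18389 matched RefSeq by Entrez ID. The build of the array annotation is not given in the sources used here. Gene order, coordinates and promoters came from RefSeq, GRCh38.p14.

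A mean per line was fitted to all 6 arrays with limma 3.58.1 in R 4.3.3 (3 residual and 3.13 prior degrees of freedom), with two-sided moderated tests and Benjamini-Hochberg adjustment over all genes. A gene was called at an adjusted p under 0.05 and at least 2-fold. The fit was tested on simulated data. The IFIT genes and the gene lists were chosen with earlier results of these data known.

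Named were the IFIT genes and IFIT1B, TERT, MYC, the 5 measured genes on each side of the cluster, fixed signalling genes, up to 4 called genes with the largest change per list and comparison or otherwise the gene with the largest difference, the 10 genes closest in profile and the 3 with the highest r for each member. IFITM2, GBP3, PNPT1 and DXO, which the rule does not name, were added after their values were seen. Alternatives were other normalizations, probe set means, variance models, filters, thresholds, the lines fitted, the replicate block, each array left out, and a plain unequal-variance t-test standing for the modified form named in the methods (here the methods' t-test).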

Additional observations from a re-analysis of the deposited data

Results flagged for a closer look

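In the genes listed here both BJEL arrays lay on the upper side of both BJ arrays and both BJELM arrays on the lower side. The order of the arrays alone is meant, and the BJELM levels of IFIT5, IFI44L, OAS2, RIGI, USP18 and DHX58, among others, were not shown to differ from BJ. Values are log2 differences, BJELM minus BJEL. Among the IFIT genes they were IFIT1 (-4.87), IFIT2 (-4.47), IFIT3 (-4.07) and IFIT5 (-1.95), and the difference was not tested because these genes were chosen for it. Among the named pathway genes they were DHX58 (-2.35), IFI44L (-5.74), IFITM1 (-2.77), IRF2 (-1.45), IRF9 (-2.44), OAS2 (-5.55), RIGI (-3.73), SAMD9L (-4.27), UBA7 (-2.67) and USP18 (-3.74), and in each of these limma's test of BJELM against BJEL passed at an adjusted p under 0.05. The naming rule favours called genes. DHX58, IFI44L, IRF2, OAS2 and RIGI were named through a call in this comparison, so their passing follows from the choice. Among the genes named for a profile like that of the IFIT genes they were GMPR (-3.30), PARP9 (-3.39), SAMD9 (-3.28), SECTM1 (-2.96), DDX60L (-2.96), XAF1 (-4.06), DTX3L (-2.89), DDX60 (-3.69), APOL6 (-2.61), TBX15 (-2.45), SP110 (-2.73), SP100 (-1.81) and PSMB8 (-2.00), for which the choice favours this difference. With 2 arrays per line, outlying arrays could not be looked for.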

How the results depend on the processing

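Under quantile normalization or median centring the 24 values of the IFIT differences moved by at most 0.085 on the log2 scale. The interferon genes called numbered 47 for BJEL against BJ, 13 for BJELM against BJ and 56 for BJELM against BJEL. The methods' t-test at an unadjusted p under 0.05 with 2-fold gave 9, 8 and 18, and after Benjamini-Hochberg adjustment 0, 0 and 0. Adjusted in this way it also called 0 of the 16 fibroblast markers in each comparison. With 2 arrays per line it has few degrees of freedom, and the cause of the 0 counts was not tested. With no fold minimum BJELM against BJ gave 39, since changes under 2-fold then count. Leaving out each array in turn gave 38 to 56, 8 to 17 and 42 to 59, with 8 in BJELM against BJ without BJ replicate 1. Fitting the replicate number as a block gave 54, 16 and 59 of these genes, and over all genes 564 risen and 429 fallen, 763 and 881, and 174 and 370 for the 3 comparisons in that order, beside 533 and 421, 753 and 866, and 170 and 324 without the block. Deviations of samples with the same number correlated at 0.448 to 0.553, but no label says what a number shares, and 2 numbers per line are too few to settle a pairing. Of the values of single genes, 3001 stayed as they were called or, for the IFIT genes, within 1 SD, 195 no longer passed, 56 newly passed, and no called gene changed sign. All 120 IFIT values were among those that stayed. Leaving out 1 of 2 arrays cannot move a mean by 1 SD, and the replicate block and probe set means leave the IFIT differences unchanged. For those settings, staying within 1 SD was therefore fixed in advance. Signals near background limit what a fall in BJELM can show.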
